A study of Mus musculus with 8 samples.

Results

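The genes described here are 39 components of the DNA damage checkpoint, of homologous recombination and of the Fanconi anemia pathway, listed by name. A gene was read through probe sets that the array's annotation assigns to exactly 1 gene symbol, and where several qualified the one brightest on average was taken. Of the 39 genes, 37 had such a probe set, among 18193 genes on the table, and Rbbp8 and Xrcc2 are not analysed here. A signal of 50 on at least 2 arrays was required for a test. That filter left 33 of the 37, among 8886 genes in all. Of these 33, 27 reached 50 on all 8 arrays and 6 on fewer, and 1, Brip1, passed through the G0 arrays alone.

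Expression was measured in 2 progenitor populations sorted from the bone marrow of male mice of mainly C576BL/6 background, as the labels spell it. Common myeloid progenitors (CMP) give rise to all myeloid lineages, and granulocyte-monocyte progenitors (GMP) are their descendants restricted to granulocytes and monocytes. The control mice were G0 TERTER/+, carrying 1 modified copy of telomerase reverse transcriptase, and the mice with short telomeres were G4/G5 TERTER/ER, a late generation with both copies modified. The modified allele is a fusion to the estrogen receptor that is inactive without an estrogen receptor ligand, the controls carry it too, and no such ligand is named in the labels. Each of the 4 groups (G0 CMP, G4/G5 CMP, G0 GMP, G4/G5 GMP) held 2 arrays, each from a pool of 4 age- and sex-matched mice, numbered pool 1 and pool 2. Ages were not stated in the sources used here. The p-values therefore measure the spread between pools of animals, and whether a CMP pool and a GMP pool of 1 genotype came from the same mice was not given.

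As background, a telomere that has lost its protective end structure is sensed as broken DNA. The ATM and ATR kinases then signal through the CHK2 and CHK1 kinases to halt the cell cycle, and the 9-1-1 clamp, TopBP1, claspin and the Timeless-Tipin pair help ATR to act at stalled replication forks. Homologous recombination repairs breaks from the sister chromatid, and the Fanconi anemia proteins release forks blocked by crosslinks; inherited loss of the latter causes bone marrow failure. Transcripts of many of these genes rise and fall with the cell cycle, and fewer cells of a kind and less RNA per cell cannot be told apart in bulk samples such as these.

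Signals are MAS5 values on a linear scale, on which the authors set every array to a target of 100, and differences are on the scale log2(signal + 10), which understates changes of dim genes. Median signals per array ran from 14.3 to 18.5. Tert, the modified gene, stayed at or below 14.9 on its 2 probe sets, so its signal checked no label. The labelled cell types matched their markers in direction. Summed signals of 9 CMP and stem cell markers ran from 5833 to 8370 in the CMP pools and from 2835 to 3318 in the GMP pools. Those of 11 GMP markers ran from 34677 to 40561 in the GMP pools. In CMP the GMP markers summed to 7290 and 15312 in the G0 pools against 27308 and 24042 in the G4/G5 pools. All 11 read higher in G4/G5 CMP, with a median difference of 1.17 against 0.04 for all genes. Their part in the comparisons below was not tested. G4/G5 CMP pool 1 stood apart from the other CMP pools, at -3.62 on a first principal component that carried 54.5% of the variance, against -37.8 to -30.7 for the others. The same pool had a summed signal of 66548 over 14 markers of maturing neutrophils, with 14 of the 14 at 50 or more, against 893 to 1251 and 2 to 4 markers in the other 3 CMP pools. These markers were also high in both G4/G5 GMP pools (34680 and 38900) against the G0 GMP pools (2142 and 4486). None of the 14 was at exactly 0 on any array. G4/G5 CMP pool 1 also had the highest sum of the 8 arrays over 7 eosinophil, basophil and mast cell markers. That sum was 7685 against 2003 to 2556 in the other CMP pools. Over 8 erythroid markers its sum was the highest too, at 2665 against 1044 to 2054 in the other CMP pools. For the genotype comparison in CMP, counts and medians are given below with and without G4/G5 CMP pool 1.

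Among the 33 genes, the median of log2(signal + 10) was 8.10 and 8.02 in the G0 CMP pools against 7.58 and 7.89 in the G4/G5 CMP pools. For GMP it was 8.01 and 7.96 in G0 versus 7.97 and 7.85 in G4/G5. Over all 8886 genes that median stayed between 7.67 and 7.78 on every array. The lowest of the 8 values for the 33 genes was that of G4/G5 CMP pool 1, and the other 7 ran from 7.85 to 8.10. Summed signals of 18 genes of replication licensing and S phase were also lowest in that pool, at 18881 against 23140 to 29710 elsewhere. The part of neutrophil RNA or of cycling cells in the level of the 33 genes was not tested.

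**Figure D1:**
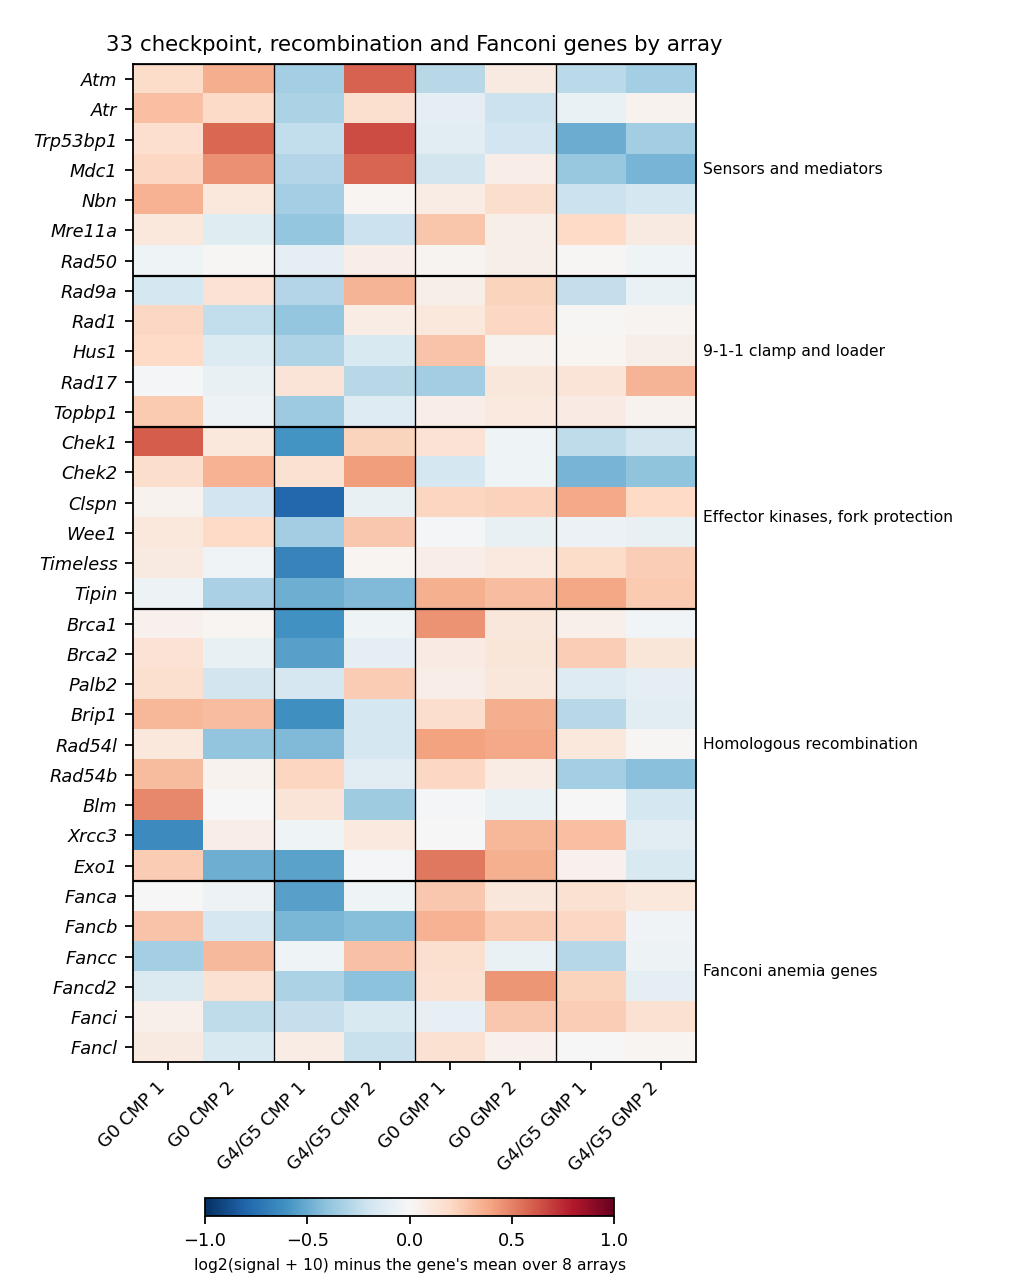
Heat map of the 33 genes (rows, grouped by role) on the 8 arrays (columns), coloured by log2(signal + 10) minus the gene's own mean over the arrays. G4/G5 CMP pool 1 is blue for most rows of the checkpoint, fork and recombination groups, and Tipin is blue in the CMP columns and red in the GMP columns.

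**Figure D2:**
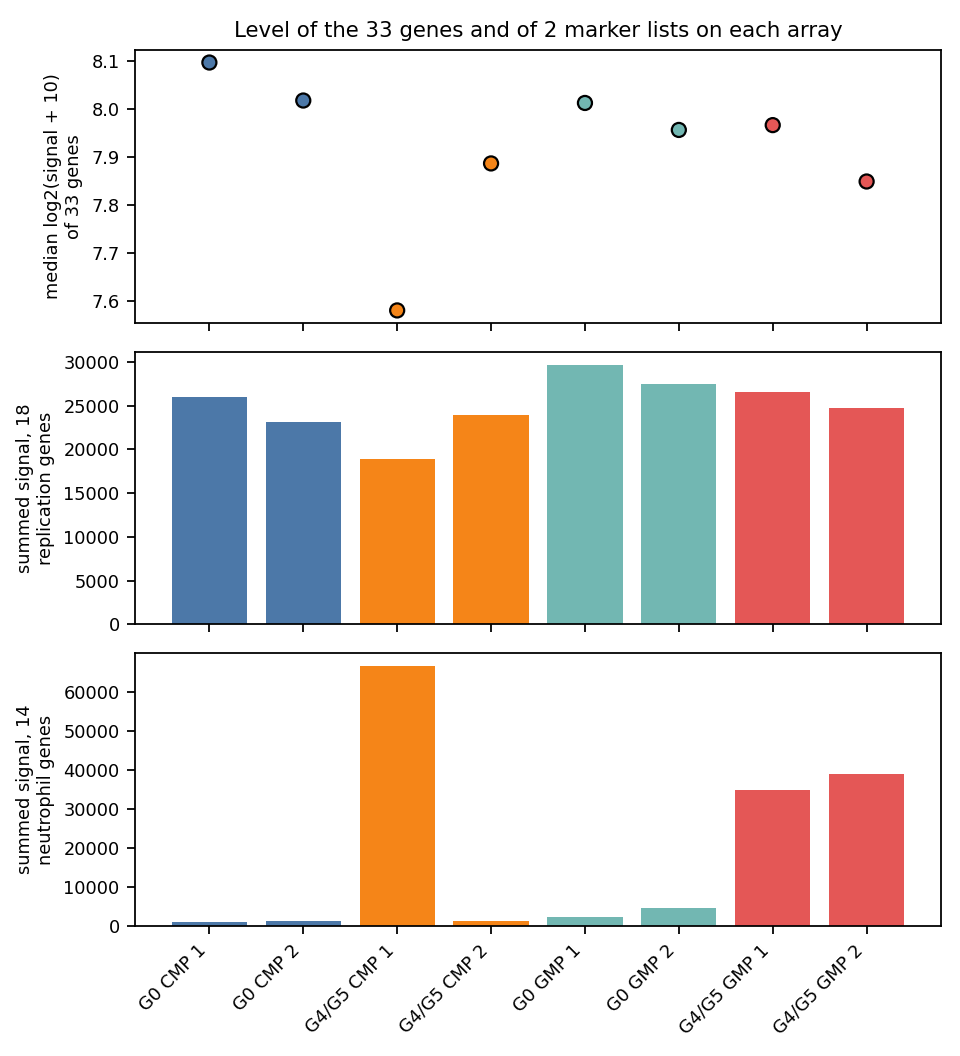
Median log2(signal + 10) of the 33 genes (top), summed linear signal of 18 replication and S phase genes (middle) and of 14 maturing neutrophil genes (bottom) on each array. G4/G5 CMP pool 1 has the lowest median, 7.58, the lowest replication sum, 18881, and the highest neutrophil sum, 66548.

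Promoters were searched for motifs of cell-cycle transcription, since many of these genes are transcribed with the cell cycle. RefSeq promoters (build GRCm38.p6, 250 bases before to 50 bases after a gene's start) were looked up for the 37 genes with a probe set. They were held for 29 of these, with 32 promoters in all. Tipin, Nbn, Rad50, Rad9a, Wee1, Rad54b, Exo1 and Fancd2 had none. The motif words searched on both strands were TTTCCCGC, TTTCGCGC, TTTGCCGC and TTTGGCGC for E2F, TTTGAA for the CHR element and CCAAT for the CCAAT box; none of the words overlaps another in the promoters printed here. An E2F word stood in 8 of the 32 promoters (25%), belonging to 7 genes, Bard1, Brca2, Chek2, Clspn, Mdc1, Rad51c and Topbp1, and in 2.26% of 32851 promoters of all genes. A CCAAT box stood in 17 of the 32 (53.1%) against 37.4% of all promoters. A CHR element stood in 2 of the 32 (6.25%) against 17.9%. A match of letters describes a sequence only and does not show that a factor binds there. The 3 promoters below are those of Chek2, which passed the test between cell types, and of Clspn and Brip1, which were chosen after their values were seen. Capitals mark E2F words and CCAAT boxes as they read on the gene's strand, so that a CCAAT box on the other strand appears as ATTGG.
Chek2 (chr5:110839733-110840032, plus strand, 1 E2F word and 2 CCAAT boxes): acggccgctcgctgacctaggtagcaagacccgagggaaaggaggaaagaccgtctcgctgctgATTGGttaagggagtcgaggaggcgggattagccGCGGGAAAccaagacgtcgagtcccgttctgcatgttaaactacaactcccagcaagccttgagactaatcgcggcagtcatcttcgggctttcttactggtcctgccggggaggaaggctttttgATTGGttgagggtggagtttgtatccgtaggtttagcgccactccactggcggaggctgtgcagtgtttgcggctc
Clspn (chr4:126556730-126557029, plus strand, 1 E2F word and 2 CCAAT boxes): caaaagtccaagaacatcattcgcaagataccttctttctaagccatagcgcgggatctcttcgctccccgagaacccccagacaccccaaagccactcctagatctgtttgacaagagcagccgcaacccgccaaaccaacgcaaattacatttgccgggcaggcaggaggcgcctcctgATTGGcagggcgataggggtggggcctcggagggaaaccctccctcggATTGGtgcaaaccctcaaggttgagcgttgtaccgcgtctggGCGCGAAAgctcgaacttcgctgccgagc
Brip1 (chr11:86201144-86201443, minus strand, 0 E2F words and 3 CCAAT boxes): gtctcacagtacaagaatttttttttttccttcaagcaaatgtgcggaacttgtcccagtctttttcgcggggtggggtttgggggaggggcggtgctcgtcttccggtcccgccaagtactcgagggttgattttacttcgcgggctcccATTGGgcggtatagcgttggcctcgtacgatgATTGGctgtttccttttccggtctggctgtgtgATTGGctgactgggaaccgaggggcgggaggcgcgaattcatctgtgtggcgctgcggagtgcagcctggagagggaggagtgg

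The first comparison asked which of these transcripts differ between G4/G5 and G0 mice in CMP. Most read lower in the G4/G5 pools, but none passed the test. Of the 33 genes, 27 had a difference below 0, where 44.4% of all 8886 genes did, and their median difference was -0.19 against 0.04 for all genes. Without the filter on signal, 29 of the 37 were below 0. In limma's test adjusted over all genes (Benjamini-Hochberg), 0 of the 33 passed, with a smallest adjusted p of 0.312, and 2 had an unadjusted p under 0.05. Over all genes 0.0113% passed, which is 1 gene, while 1194 had an unadjusted p under 0.05. For 11 of the 33, both G4/G5 pools lay below both G0 pools, where 14.9% of all genes did so, and for 0 of the 33 did both lie above.

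Brip1, a helicase that partners BRCA1, had the largest of these differences in CMP. Its signals were 62.2 and 61.3 in G0 versus 27.4 and 40.8 in G4/G5. The groups did not overlap. All 4 G4/G5 pools were below the filter of 50, and since the gene passed that filter through the G0 arrays alone, a lower G4/G5 reading was built into its selection. The difference was -0.72 ± 0.25 (SE, 2 pools a group; adjusted p = 0.312). Fancb, a subunit of the Fanconi core ligase, read 74.4 and 51.7 in G0 versus 40.6 and 41.5 in G4/G5 CMP, a difference of -0.50 ± 0.23 (adjusted p = 0.392). Both of its G4/G5 pools were also under 50. Fancd2, the protein that the core ligase tags with ubiquitin, read 51.9 and 65.7 against 44.9 and 41.3, a difference of -0.37 ± 0.23 (adjusted p = 0.515). The 3 genes are dim, so these differences lie close to the floor of the measurement.

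Among the sensors and mediators, 6 of 7 tested genes were below 0 in CMP. Nbn, a subunit of the MRN complex that senses broken ends, read 252 and 212 in G0 versus 153 and 198 in G4/G5, a difference of -0.39 ± 0.17 (adjusted p = 0.372). Mre11a, the nuclease of the same complex, differed by -0.30 ± 0.16, whereas Rad50, its structural subunit, differed by 0.01 ± 0.13. Signals of Atr, the kinase of stalled forks, were 391 and 361 in G0 versus 251 and 354 in G4/G5, with no overlap and a difference of -0.32 ± 0.18 (adjusted p = 0.456). Its other 2 probe sets past the filter gave differences of -0.74 and -0.64. Atm, Trp53bp1 and Mdc1 overlapped between genotypes, since G4/G5 pool 1 was the lowest CMP pool for each of them and pool 2 the highest.

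In the 9-1-1 clamp and its loader, 4 of 5 genes were below 0 in CMP. Topbp1, which activates ATR, read 1435 and 1154 in G0 versus 929 and 1094 in G4/G5, a difference of -0.35 ± 0.14 (adjusted p = 0.355). Hus1, a clamp subunit, differed by -0.26 ± 0.16 without overlap, and Rad9a, Rad1 and Rad17 overlapped with differences from -0.14 to 0.03. These genes had signals well above the filter on every array, from 85.2 to 1435.

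Of the 6 effector kinases and fork protection genes, 5 were below 0 in CMP. Chek1, the kinase that ATR activates, had signals of 526 and 371 in G0 versus 223 and 403 in G4/G5. The G4/G5 pools were thus far apart, with pool 2 inside the G0 range, and the difference was -0.54 ± 0.27 (adjusted p = 0.422). Its other 2 probe sets past the filter gave differences of -0.95 and -0.72. Timeless, the fork protection protein that binds Tipin, read 487 and 444 against 283 and 462, and Clspn, the adaptor between ATR and CHK1, read 341 and 290.2 against 189 and 316. In both genes pool 1 alone was low. Tipin read 1436 and 1191 in G0 versus 1058 and 1093 in G4/G5, lower in both pools, with a difference of -0.28 ± 0.13 (adjusted p = 0.383). Chek2, the kinase that ATM activates, read 223 and 253 against 219 and 265 and overlapped, with a difference of 0.02 ± 0.16.

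In homologous recombination, 7 of 9 tested genes were below 0 in CMP. Brca1, a ubiquitin ligase that promotes strand resection, read 279 and 274 in G0 versus 175 and 262 in G4/G5, a difference of -0.35 ± 0.20 (adjusted p = 0.481). Brca2, a tumour suppressor needed for homologous recombination, read 329.6 and 283 against 201 and 279, with a difference of -0.35 ± 0.18 (adjusted p = 0.422). The groups did not overlap for either gene, by a narrow margin between G0 pool 2 and G4/G5 pool 2. Palb2, Rad54l, Rad54b, Blm, Xrcc3 and Exo1 overlapped, with differences from -0.35 to 0.31. Xrcc3 stood at 0.31, but its second probe set past the filter gave -0.48. That of Exo1 gave -1.04 against -0.16 for the chosen one.

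The 2 G4/G5 CMP pools did not show these differences equally. With pools taken by number, 30 of the 33 genes were lower in G4/G5 pool 1 than in G0 pool 1 (46.5% of all genes). In pool 2, 16 were lower than in G0 pool 2 (41.8% of all genes), and 14 were lower in both (23.6% of all genes). Without G4/G5 CMP pool 1, 20 of 33 were below 0 (40.7% of all genes), and the median difference was -0.05 against 0.07 for all genes. Without G4/G5 CMP pool 2, 29 of 33 were below 0 (48.8% of all genes), and the median was -0.38 against 0.01 for all genes. That setting compares G4/G5 CMP pool 1 alone, with its high neutrophil and other markers given above, with the G0 pools.

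**Figure D3:**
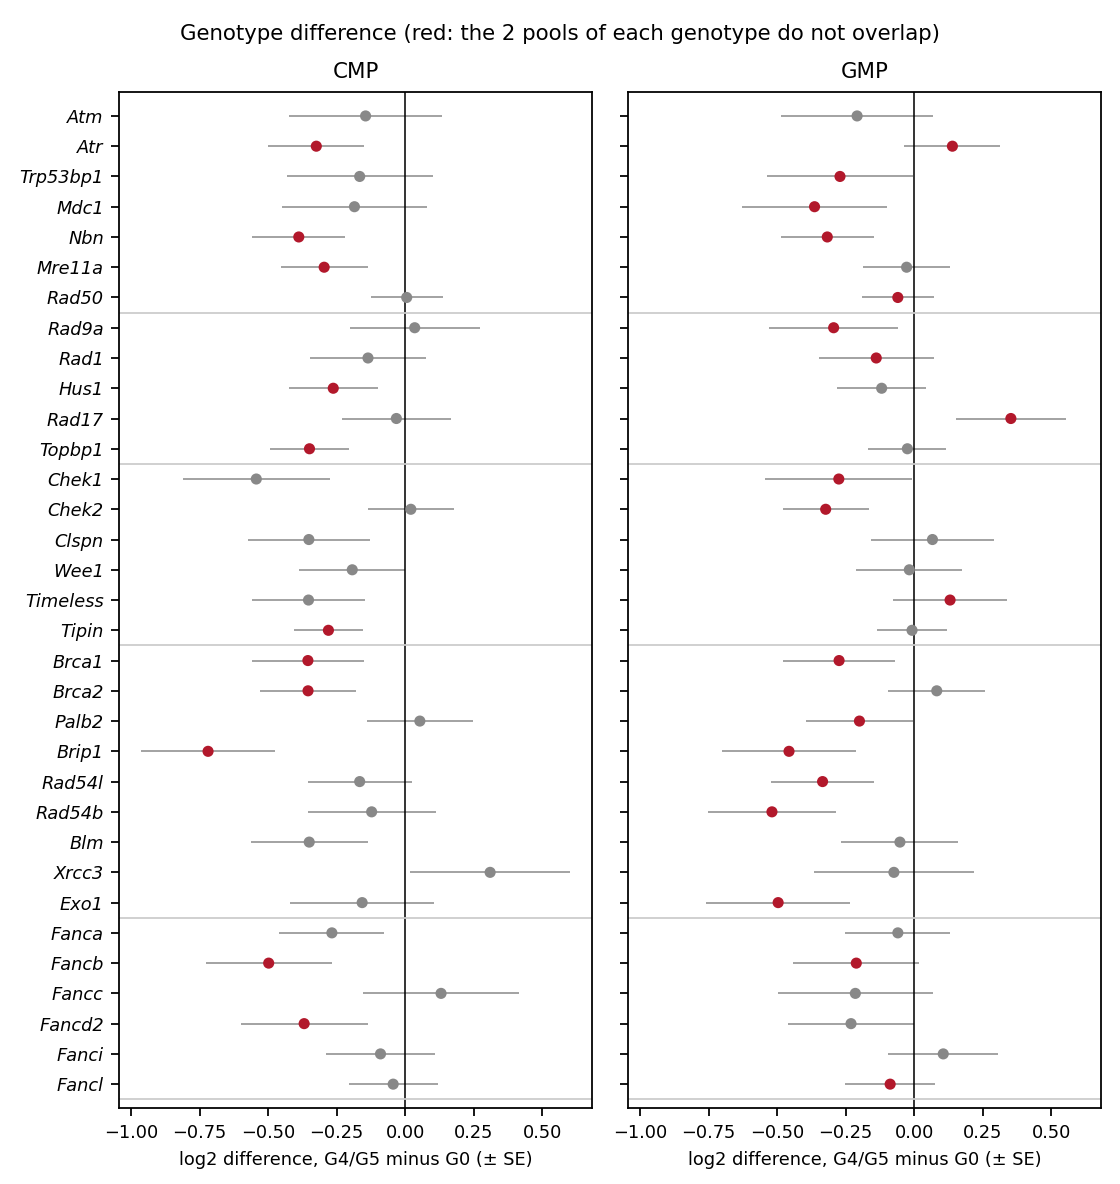
Log2 difference of G4/G5 minus G0 with its standard error for each of the 33 genes in CMP (left) and GMP (right), in order of role; red points are genes whose 2 pools of each genotype do not overlap. In each cell type 27 of the 33 points lie left of 0.

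In GMP the same genotype comparison again gave mostly lower readings and no gene past the test. Of the 33 genes, 27 were below 0 (49.1% of all genes were), with a median of -0.14 against 0.01 for all genes; without the signal filter it was 30 of 37. None of the 33 passed, 0 had an unadjusted p under 0.05, and the share of all genes that passed was 0%, with 699 of them at an unadjusted p under 0.05. Both G4/G5 pools lay below both G0 pools for 16 of the 33 (26.5% of all genes) and above them for 3 (28.8% of all genes), namely Atr, Rad17 and Timeless. Fitted on the 4 GMP arrays alone, 264 genes passed as higher and 96 as lower over the whole table, and 0 of the 33 did, with a smallest adjusted p of 0.060. Maturing neutrophil markers differed between these groups too, as given above, and their part in these differences was not tested.

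Recombination genes had the largest lower readings in GMP. Of 9 tested, 8 were below 0 (49.1% of all genes) and 6 were lower without overlap (26.5% of all genes). Rad54b, a helper of strand invasion, read 59.9 and 53.8 in G0 versus 37.9 and 35.3 in G4/G5 GMP, a difference of -0.52 ± 0.23 (adjusted p = 0.633). Exo1, an exonuclease that resects broken ends, read 334 and 295 against 236 and 205, a difference of -0.50 ± 0.26 (adjusted p = 0.645). Brip1 read 54.8 and 63.7 in G0 versus 37.4 and 43.5 in G4/G5, a difference of -0.46 ± 0.25 (adjusted p = 0.647). Brip1 is among the 6 that did not overlap. Because it passed the signal filter through the G0 arrays alone, its lower G4/G5 reading was built into its selection here too. Rad54l and Brca1 did not overlap, at -0.33 and -0.27, and Brca2 was at 0.08.

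Of the 7 tested sensors and mediators, 6 were below 0 in GMP. Mdc1, the scaffold that binds marked chromatin at breaks, read 194 and 233 in G0 versus 168 and 158 in G4/G5, a difference of -0.36 ± 0.26 (adjusted p = 0.727). Nbn read 206 and 222 against 167 and 172, a difference of -0.32 ± 0.17 (adjusted p = 0.647), close to its difference in CMP. Atr stood the other way, at 294 and 271 in G0 versus 301 and 322 in G4/G5, a difference of 0.14 ± 0.18; its other 2 probe sets gave -0.03 and -0.01. In the clamp and loader group, Rad17, which loads the 9-1-1 clamp, read 328 and 458 in G0 versus 463 and 536 in G4/G5, a difference of 0.35 ± 0.20 (adjusted p = 0.660), and the other 4 genes were below 0. Its G4/G5 pool 1 lay just above the higher of the G0 pools.

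The kinases Chek2 and Chek1 read lower without overlap in GMP, Chek2 at 173 and 189.8 in G0 versus 139 and 146 in G4/G5 (-0.32 ± 0.16, adjusted p = 0.636) and Chek1 at 381 and 333 versus 286 and 300.1 (-0.28 ± 0.27, adjusted p = 0.797). The fork genes were nearly level, with Tipin at -0.01, Clspn at 0.07 and Timeless at 0.13. Of the 6 tested Fanconi genes 5 were below 0, from -0.23 for Fancd2 to -0.06 for Fanca, and Fanci was at 0.11. Each of these Fanconi differences was about as large as its standard error or smaller.

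Averaged over both cell types, 30 of the 33 genes were below 0 (46.1% of all genes), with a median of -0.16, and 0 passed (0.0338% of all genes, which is 1 higher and 2 lower; 2 of the 33 and 1582 of all genes had an unadjusted p under 0.05). Brip1 and Nbn were the only 2 of the 33 for which all 4 G4/G5 pools lay below all 4 G0 pools, where 2.06% of all genes did so. Brip1 passed the signal filter through the 4 G0 arrays alone, so its separation was built into its selection, which leaves Nbn. Brip1 differed by -0.59 ± 0.17 (adjusted p = 0.205) and Nbn by -0.35 ± 0.12 (adjusted p = 0.217). Without G4/G5 CMP pool 2, Brip1, which passed the signal filter through the G0 arrays alone, and Chek1 passed as lower (2 of the 33, where 7.52% of all genes passed), and without G4/G5 CMP pool 1 the number below 0 was 20 and the median -0.06. With pools taken by number, 6 of the 33 (18.2%, against 11.6% of all genes) were lower in all 4 pairs, namely Nbn, Brca1, Brip1, Rad54b, Fancb and Fancl. For Brip1 this too was built into its selection. On the brighter probe set that Rad54b shares with Fsbp, neither GMP pair was lower.

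Whether the genotype difference itself differed between the cell types was tested as an interaction. None of the 33 passed, 0 had an unadjusted p under 0.05, and 0% of all genes passed (353 at an unadjusted p under 0.05), with a smallest adjusted p of 0.994 among the 33. Of the 33, 19 had a less negative or more positive difference in GMP than in CMP (45.1% of all genes), with a median of 0.14. The largest were Timeless at 0.48 ± 0.29, Atr at 0.46 ± 0.25, Brca2 at 0.44 ± 0.25 and Clspn at 0.42 ± 0.32, and Rad54b at -0.40 ± 0.33 in the other direction. Without G4/G5 CMP pool 1 the median turned to -0.11. The CMP and GMP differences come from different arrays, and over the 33 genes they correlated with Pearson's r = 0.07, against 0.60 over the 8886 genes; genes are not independent replicates. Both differences were below 0 for 21 of the 33 (63.6%), where 28.9% of all genes had both below 0.

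As to the cell types, Tipin passed in both genotypes and Chek2 in the G4/G5 mice. Tipin read 1436 and 1191 in CMP and 1913 and 1847 in GMP of G0 mice, which is 1.43-fold higher in GMP on the log2(signal + 10) scale (0.52 ± 0.13, adjusted p = 0.0247). In G4/G5 mice it read 1058 and 1093 in CMP and 1952 and 1790.2 in GMP, which is 1.73-fold higher (0.79 ± 0.13, adjusted p = 0.0108). Every GMP pool was thus above every CMP pool. Chek2 was lower in GMP, at 223 and 253 in CMP and 173 and 189.8 in GMP of G0 mice (-0.37 ± 0.16, adjusted p = 0.124). In G4/G5 mice it read 219 and 265 in CMP and 139 and 146 in GMP, 1.64-fold lower in GMP (-0.72 ± 0.16, adjusted p = 0.0285). Its GMP pools all lay below its CMP pools.

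Calls between cell types were few among the 33 genes. In G0 mice 1 of 33 passed, or 3.03%, where 20.8% of all genes did, and in G4/G5 mice 2 of 33 passed, or 6.06%, where 10.5% of all genes did. Groups did not overlap for 8 genes higher in GMP (32.2% of all genes) and 7 lower (33.1%) in G0 mice, and for 14 higher (27.7%) and 5 lower (33%) in G4/G5 mice. Median differences were 0.07 in G0 mice and 0.17 in G4/G5 mice. Without G4/G5 CMP pool 1 the median in G4/G5 mice was -0.0023, and 17 of the 33 were below 0 (55.9% of all genes). The call for Tipin in G0 was lost after quantile normalization (0.30, adjusted p = 0.114) and without either G0 GMP pool, either G4/G5 GMP pool or G0 CMP pool 2, with an adjusted p of at most 0.171. The call for Chek2 was lost without the signal filter (adjusted p = 0.0519), on the 4 G4/G5 arrays alone (adjusted p = 0.0668), and without any 1 of the 4 GMP pools or G4/G5 CMP pool 2 (adjusted p of at most 0.216). In G4/G5 mice Tipin was not called without G4/G5 GMP pool 1 (adjusted p = 0.141) or pool 2 (adjusted p = 0.0736).

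**Figure D4:**
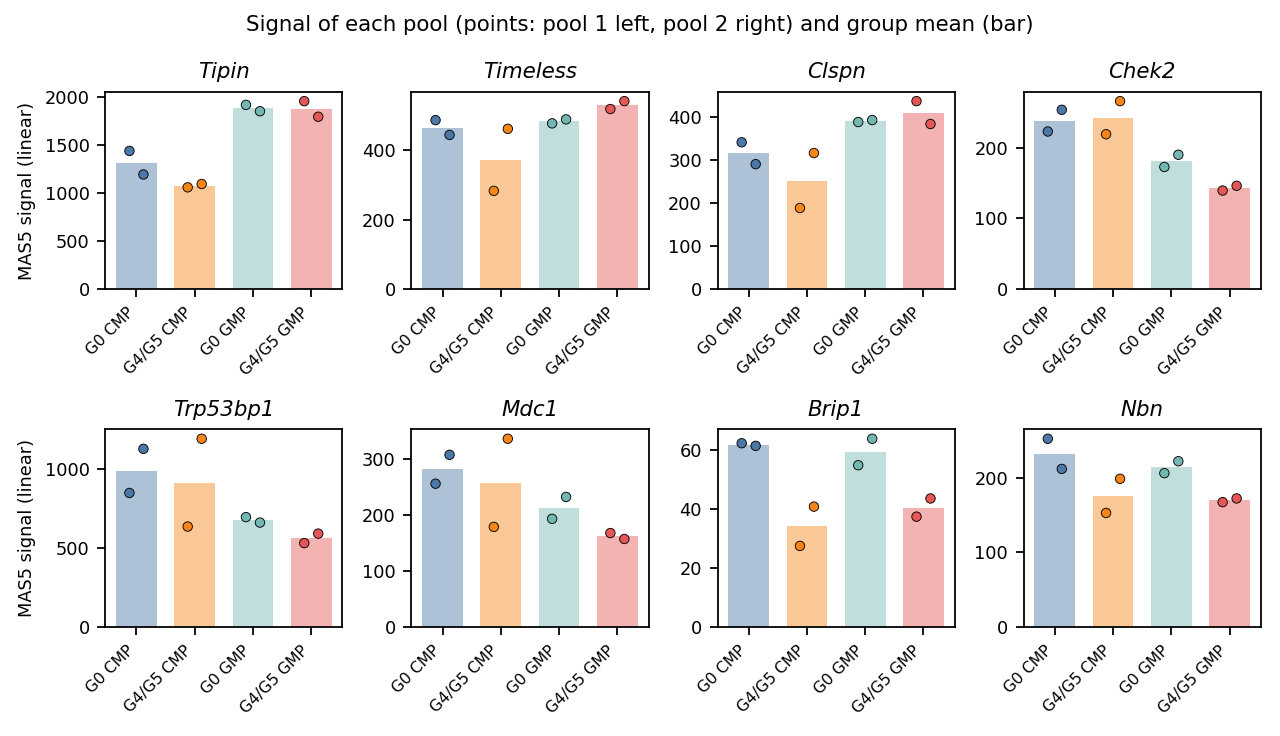
MAS5 signal (linear) of 8 genes in each pool (points) and the group mean (bars), with the 4 groups on the horizontal axis. Tipin lies between 1058 and 1436 in the CMP pools and between 1790.2 and 1952 in the GMP pools, Chek2 is lower in every GMP pool than in every CMP pool, and Brip1 and Nbn are lower in every G4/G5 pool than in every G0 pool. Brip1 passed the signal filter through the G0 arrays alone.

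Clspn and Timeless, the other fork protection genes, also read higher in GMP of G4/G5 mice, without passing. Clspn read 341 and 290.2 in CMP and 388 and 392 in GMP of G0 mice (0.30 ± 0.22, adjusted p = 0.362), and 189 and 316 against 436 and 383 in G4/G5 mice (0.72 ± 0.22, adjusted p = 0.0755). Its second probe set past the filter gave -0.45 in G0 and 0.28 in G4/G5, so the direction in G0 depends on the probe set. Timeless was level in G0 mice (0.05 ± 0.21) and read 283 and 462 against 519 and 542 in G4/G5 mice (0.54 ± 0.21, adjusted p = 0.130), with G4/G5 CMP pool 1 the lower of the pair. Over the 33 genes, the median difference of GMP minus CMP in G4/G5 mice was 0.35 without G4/G5 CMP pool 2. Without pool 1 it was -0.0023.

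Of the 7 tested sensors and mediators, 5 were below 0 in each genotype, and none passed between the cell types. Trp53bp1, which shields broken ends from resection, read 848 and 1127 in CMP and 695 and 661 in GMP of G0 mice (-0.52 ± 0.27, adjusted p = 0.192), and 636 and 1191 against 531 and 591 in G4/G5 mice (-0.63 ± 0.27, adjusted p = 0.160). Its other 2 probe sets past the filter gave -0.55 and -0.26 in G0 mice, with -0.54 and -0.47 in G4/G5 mice. Mdc1 read 256 and 308 against 194 and 233 in G0 mice (-0.39 ± 0.26, adjusted p = 0.319) and 179 and 337 against 168 and 158 in G4/G5 mice (-0.57 ± 0.26, adjusted p = 0.193). Every GMP pool was below every pool of CMP from the same genotype for both genes. Atm was at 339 and 386 against 244 and 319 in G0 mice (-0.36 ± 0.28) and at 234 and 455 against 246 and 234 in G4/G5 mice (-0.43 ± 0.28). Atm, Chek2, Mdc1 and Trp53bp1 passed as lower in GMP of G4/G5 mice once G4/G5 CMP pool 1 was left out; with Tipin, 5 of the 33 then passed, where 16.1% of all genes did. Atr read lower in GMP of G0 mice, 391 and 361 against 294 and 271 (-0.40 ± 0.18, adjusted p = 0.136), and with all probe sets averaged it passed (-0.79, adjusted p = 0.0221); in G4/G5 mice it stood at 0.06 ± 0.18. Both Atr and Trp53bp1 passed in G0 mice when either G4/G5 CMP pool was left out of the shared spread, at adjusted p values from 0.0359 to 0.0470. With Tipin that made 3 of the 33 in each case, where 28.7% of all genes passed without pool 1 and 28.5% without pool 2. Mre11a stood the other way, at 225 and 191 in CMP and 255 and 217 in GMP of G0 mice (0.18 ± 0.16) and at 157 and 178 against 240.2 and 222 in G4/G5 mice (0.44 ± 0.16, adjusted p = 0.106). Its groups did not overlap in G4/G5 mice, and its second probe set gave -0.24 in G0 and -0.03 in G4/G5. Nbn stood at -0.11 and -0.04, and Rad50 at 0.06 and -0.01, in G0 and G4/G5 mice respectively.

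Among recombination genes, Exo1 and Rad54l, a motor protein of strand exchange, read higher in GMP of G0 mice. Exo1 read 275 and 160.3 in CMP and 334 and 295 in GMP (0.56 ± 0.26, adjusted p = 0.162), and Rad54l 270.2 and 187 against 334 and 329 (0.54 ± 0.19, adjusted p = 0.0766). Both passed without G0 CMP pool 1, the higher of the CMP pools for each; with Tipin that made 3 of the 33, where 18.2% of all genes passed. The other Exo1 probe set past the filter gave 0.07, and the other 2 Rad54l probe sets past the filter gave 0.12 and -0.14. In G4/G5 mice Brca2 read 201 and 279 in CMP and 356 and 325 in GMP (0.50 ± 0.18, adjusted p = 0.103). The 6 tested Fanconi genes were all above 0 in G0 mice, from 0.05 to 0.29, and 5 of 6 in G4/G5 mice, from -0.29 to 0.53; none passed. Clamp and loader genes lay between -0.07 and 0.18 in G0 mice and between -0.17 and 0.31 in G4/G5 mice.

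**Figure D5:**
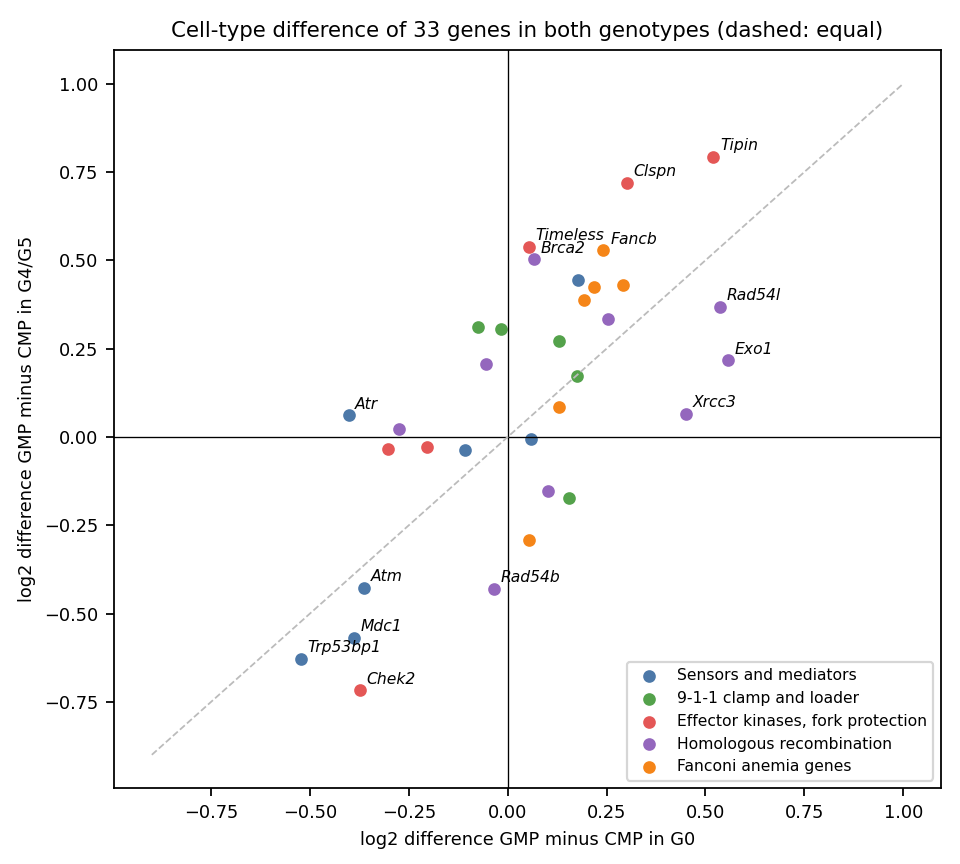
Log2 difference of GMP minus CMP in G0 mice (horizontal) and in G4/G5 mice (vertical) for the 33 genes, coloured by role; the dashed line marks equal values. Tipin and Clspn lie at the upper right and Chek2, Trp53bp1, Mdc1 and Atm at the lower left, and 24 of the 33 genes have the same sign in both genotypes.

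The differences between cell types in G0 and in G4/G5 mice come from separate arrays. Over the 33 genes they correlated with Pearson's r = 0.69 and 24 (72.7%) had the same sign; over the 8886 genes these values were 0.83 and 80.2%. Sensors and mediators sat mainly below 0 in both genotypes, with 5 of 7 genes each time, and the Fanconi genes mainly above.

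Of the 37 genes, 4 did not pass the filter and had no test. Their signals ran from 22.6 to 51.2 for Atrip, the partner of ATR, from 4.40 to 14.3 for Bard1, the partner of BRCA1, from 3.35 to 47.8 for Rad51c and from 21.1 to 56.4 for Fancm, a DNA translocase that recruits the Fanconi core. The 33 that passed include 13 with further probe sets past the filter, 17 in all. For these 13, the further probe sets had the sign of the chosen one in 11 genes for the CMP genotype difference and in 10 genes for the GMP genotype difference and for each comparison of cell types.

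Other checkpoint, recombination and Fanconi genes also read mostly lower in G4/G5 mice. Of 41 tested genes of a wider list of these, 28 were below 0 in CMP (44.4% of all genes) and 26 in GMP (49.1% of all genes). None of the 41 passed in either. In CMP, 24 of the 41 were below 0 without G4/G5 CMP pool 1, and their median moved from -0.11 to -0.08; over all genes 3618 of 8886 were then below 0. Smc5, a subunit of the SMC5-SMC6 complex, read 405 and 282 in G0 CMP against 166 and 196 in G4/G5 CMP (-0.87 ± 0.21, adjusted p = 0.239). It was also lower in GMP of G0 mice, at 150.0 and 145 (-1.14 ± 0.21, adjusted p = 0.0103), and Brcc3, a deubiquitinase of the BRCA1-A complex, was higher (0.60 ± 0.16, adjusted p = 0.0344). In G4/G5 mice Dna2, a resection nuclease, and Rpa1, a subunit of the single-strand binding protein RPA, were higher in GMP (0.86 ± 0.16, adjusted p = 0.0182, and 0.69 ± 0.18, adjusted p = 0.0464). Of 8 tested genes of non-homologous end joining, 1 passed between the cell types in G0 mice, where 20.8% of all genes passed in either direction. It was Xrcc5 (the Ku80 end-binding protein), lower in GMP (-1.52 ± 0.29, adjusted p = 0.0114), where 10.2% of all genes passed as lower. By genotype, 5 of these 8 were below 0 in CMP and 3 in GMP, with medians of -0.20 and 0.09 and 0 calls. Without G4/G5 CMP pool 1, 4 of the 8 were below 0 in CMP. In replication licensing and S phase, 15 of 17 tested genes were below 0 in CMP and 15 of 17 in GMP by genotype, with medians of -0.33 and -0.22 and 0 calls. Without G4/G5 CMP pool 1, 12 of the 17 were below 0 in CMP, with a median of -0.09. Between the cell types 3 of these 17 passed as higher in GMP in each genotype, and 0 as lower. Over all genes 10.6% passed as higher in G0 mice and 4.18% in G4/G5 mice. The 3 were Ccne1, Rrm2 and Cdc45 in G0 mice and Rrm2, Cdc45 and Cdt1 in G4/G5 mice.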

How the data were processed

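Biotin-labelled RNA from sorted CMP and GMP was run on Affymetrix Mouse Genome arrays, between 5 and 10 ng of total RNA from 5000 to 20000 cells per sample, per the labels. The deposited values are linear intensities, named as MAS5 signals by the submitters' processing notes; the authors used a target signal of 100 for every array, as the series text says. Background settings, detection calls and a build are not given in the sources used here. Precision is limited by the number of arrays.

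These intensities were taken to log2(signal + 10) without further normalization. Of 45101 probe sets, 34945 had 1 gene symbol in the platform annotation, 932 had several, 9160 had none and 64 were controls; those with 1 were used. Levels of different probe sets were not ranked against each other. Group means were fitted over all 8 arrays with limma 3.58.1 in R 4.3.3 (4 residual degrees of freedom, empirical Bayes, intensity trend). Adjustment was by Benjamini-Hochberg across 8886 genes, at 0.05, in 6 comparisons. The fit was tested on simulated data. Every adjusted p in the text is from limma. Figures used Python 3.11.15 and matplotlib 3.10.9.

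The members and all gene lists were chosen with earlier results of these data known, so no list is independent evidence of a direction. All signals were given for genes past the test and for up to 5 genes per comparison with the largest differences among non-overlapping groups, and other genes were given by role. Genes outside the 39 were the up to 4 largest differences of a list, with the exceptions of those said to pass. The alternatives were 12 other settings and the omission of each array in turn; counts of the other lists without G4/G5 CMP pool 1 were added after seeing the data.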

Additional observations from a re-analysis of the deposited data

Results flagged for a closer look

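Atr met the condition of opposite directions in the 2 cell types: both G4/G5 pools lay below both G0 pools in CMP (251 and 354 against 391 and 361) and above them in GMP (301 and 322 against 294 and 271). The difference between the 2 genotype differences was 0.463 on the log2 scale, and limma's interaction test did not call it (adjusted p = 0.994). The other 2 Atr probe sets past the filter gave -0.74 and -0.64 in CMP and -0.03 and -0.01 in GMP.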

How the results depend on the processing

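Under 12 other settings the counts of called members moved in 4 cases: Tipin in G0 was not called after quantile normalization (0 members called higher against 1), 1 member (Atr) was called lower in G0 with all probe sets averaged, and Chek2 in G4/G5 was not called without the signal filter or on the arrays of that comparison alone (0 members called lower against 1 in each). The median differences kept their direction under those of the 12 that could be fitted for them. Over the omission of each array in turn, the median difference ran from -0.381 to -0.0516 for genotype in CMP, from -0.14 to -0.10 in GMP, from -0.25 to -0.06 for their mean, from -0.11 to 0.25 for the interaction, from -0.04 to 0.12 for cell type in G0 and from -0.0023 to 0.351 in G4/G5. Members called lower ran from 0 to 2 for genotype in CMP, from 0 to 2 for the mean, from 0 to 2 for cell type in G0 and from 0 to 4 in G4/G5, and members called higher from 0 to 3 for cell type in G0 and from 0 to 4 in G4/G5. The adjusted p of Tipin ran from 0.0182 to 0.171 in G0 and from 0.00652 to 0.141 in G4/G5, and that of Chek2 from 0.0173 to 0.216 in G4/G5. The cause of these changes was not tested; leaving out an array leaves 1 pool in its group, assumed to vary like the others. Among single genes named for a comparison, 490 values kept their direction and their side of the threshold, 11 passed only under an alternative and 15 no longer passed. Pools are matched by number in the series text, but same-numbered pools of the 2 genotypes correlated in their deviations by 0.247 in CMP and 0.139 in GMP, over only 2 pairs each. With the pool number as a replicate block, the median difference stayed at -0.19 in CMP and -0.14 in GMP, and no member call changed in the comparisons where the block could be fitted. Signals near the floor limit Brip1, Fancb, Fancd2, Fancc, Rad54b and Xrcc3, which read under 50 on some arrays.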

Other observations

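Of 11 tested targets of p53, the transcription factor that the checkpoint kinases activate, 0 passed limma's test by genotype in either cell type, while 6 in CMP and 3 in GMP had an unadjusted p under 0.05. Their differences of G4/G5 minus G0 were below 0 for 2 of 11 in CMP, where 44.4% of all genes were, and for 3 of 11 in GMP, where 49.1% were, with medians of 0.37 and 0.21. In CMP, 2 of 11 were below 0 without G4/G5 CMP pool 1, with a median of 0.29. Summed signals of 14 maturing neutrophil markers were 66548 in G4/G5 CMP pool 1, and 34680 and 38900 in the G4/G5 GMP pools against 2142 and 4486 in the G0 GMP pools; their part in these values was not tested. Zmat3, a p53-induced RNA-binding protein, differed by 1.04 ± 0.27 in CMP (adjusted p = 0.251) and by 1.05 ± 0.27 in GMP (adjusted p = 0.595). Trp53inp1, a p53-induced regulator of stress responses, read 471 and 594 in G0 CMP against 1088 and 726 in G4/G5 CMP, and 101 and 200.3 in G0 GMP against 382 and 387 in G4/G5 GMP. Its differences were 0.74 ± 0.30 (adjusted p = 0.355) and 1.37 ± 0.30 (adjusted p = 0.595). Trp53inp1 was lower in GMP than in CMP of G0 mice (-1.82 ± 0.30, adjusted p = 0.00792). It was the only 1 of the 11 to pass there, where 20.8% of all genes passed.

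Of 13 tested mitotic genes, 6 passed as higher and 0 as lower in GMP of G0 mice, where 10.6% of all genes passed as higher. Among them were Aurka, a spindle kinase (1.00 ± 0.18, adjusted p = 0.00983), and Birc5, or survivin (0.81 ± 0.17, adjusted p = 0.0145). In G4/G5 mice 0 of the 13 passed, where 10.5% of all genes passed, and 1 had an unadjusted p under 0.05. By genotype all 13 were below 0 in GMP, with a median of -0.36, and 6 of 13 in CMP, with a median of 0.08; none passed, and 6 and 2 of the 13 had an unadjusted p under 0.05. Among E2F and DREAM regulators, 10 of 15 were below 0 in CMP and 11 in GMP, with 0 calls. The mitotic median in CMP turned to -0.03 without G4/G5 CMP pool 1, with 7 of 13 below 0, and 10 of 15 E2F and DREAM regulators were below 0. Between the cell types 20% of these 15 regulators passed in G0 mice, where 20.8% of all genes did, 2 as higher in GMP and 1 as lower. Mybl2 and E2f1, cell-cycle transcription factors, were higher in GMP of G0 mice (0.93 ± 0.18, adjusted p = 0.0130, and 0.70 ± 0.18, adjusted p = 0.0331). Rbl2, a repressor subunit within the DREAM complex, was lower (-0.79 ± 0.18, adjusted p = 0.0210). In G4/G5 mice 0 of the 15 passed, where 10.5% of all genes did.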
